A study of Mus musculus with 12 samples.

Results

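CC chemokines are small secreted proteins that attract white blood cells, and 7 of their genes were followed here in tumor cells that lack the secreted glycoprotein DKK3. The genes were Ccl2, Ccl5, Ccl7, Ccl9, Ccl20, Ccl25 and Ccl28. They were taken by gene symbol from a table of raw read counts for 57278 mouse genes. All 7 had at least 1 count, and 5 of them were among the 15165 genes that passed the filter on low counts and could be tested. Ccl5 with 55 counts and Ccl9 with 64 counts over all libraries did not pass and are given as levels only.

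The cells were 3 DDKC lines, DDKC_9750, DDKC_9790 and DDKC_9804, established from pancreatic tumors of Dkk3-/- mice that also carried Ptf1a Cre/+. The Cre is driven by Ptf1a and so acts in the pancreas, whereas the Dkk3 knockout is present in every cell of the mouse. Each line was measured untreated and after treatment with rDKK3, a recombinant soluble DKK3 protein, with 2 libraries for each line and condition and 12 in all. All groups share the genotype, and the paper describes serum-containing medium for culture of the lines in general. The concentration and duration of rDKK3 for the RNA samples are not given in the sources used here. The comparisons ask how far these chemokine transcripts differed between the lines, and how far they changed when the missing protein was supplied from outside.

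CC chemokines act through G protein-coupled receptors on the attracted cell. CCL2 and CCL7 are ligands of CCR2 and draw inflammatory monocytes out of the bone marrow and into tissue. CCL5 attracts T cells and monocytes, and mouse CCL9 attracts CCR1-bearing myeloid cells. CCL20 is the chemokine ligand of CCR6, found on Th17 cells, B cells and some dendritic cells. CCL25 draws CCR9-bearing lymphocytes to thymus and small intestine, and CCL28 is made by mucosal epithelia and acts on CCR10 and CCR3. Transcription of Ccl2, Ccl5, Ccl7 and Ccl20 is known to be inducible by NF-kB, which is activated by cytokines such as TNF and IL1, whereas Ccl25 and Ccl28 are better known for tissue-restricted expression.

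In GRCm39, the build used for counting, Ccl2 (ENSMUSG00000035385.6) lies at chr11:81926397-81928279 on the plus strand, and Ccl7 (ENSMUSG00000035373.3) follows 8258 bases further on at chr11:81936538-81938351 on the same strand. Ccl5 (ENSMUSG00000035042.3, chr11:83416604-83421344) and Ccl9 (ENSMUSG00000019122.9, chr11:83463745-83469462) are neighbours on the minus strand of the same chromosome, 42400 bases apart. Ccl20 (ENSMUSG00000026166.15) lies at chr1:83094487-83096888, Ccl25 (ENSMUSG00000023235.15) at chr8:4375210-4410020 and Ccl28 (ENSMUSG00000074715.4) at chr13:120085355-120115895, all on the plus strand. Ccl25 overlaps Elavl1 on the opposite strand, which had 13576 counts against 191 for Ccl25. The authors counted by strand, and the share of reads assigned to the wrong strand was not measured here.

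Promoter windows of 250 bases before to 50 after the start were matched in RefSeq sequences (GRCm38.p6, a different build from the counts) for Ccl20, Ccl25, Ccl9 and Ccl28, that is 4 of the 7 genes. The window of Ccl20, whose treated libraries lay above the untreated ones in every line as given below, and that of Ccl9, the other member with an NF-kB match, are printed 5′ to 3′ with matches to the NF-kB consensus in capitals. The Ccl20 window is chr1:83116516-83116815 on the plus strand and the Ccl9 window is chr11:83578587-83578886 on the minus strand.
Ccl20: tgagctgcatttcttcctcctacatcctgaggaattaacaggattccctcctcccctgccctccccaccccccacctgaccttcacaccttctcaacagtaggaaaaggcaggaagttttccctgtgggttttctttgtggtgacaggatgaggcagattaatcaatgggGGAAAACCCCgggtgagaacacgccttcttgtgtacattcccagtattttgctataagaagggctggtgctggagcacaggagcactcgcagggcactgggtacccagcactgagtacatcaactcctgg
Ccl9: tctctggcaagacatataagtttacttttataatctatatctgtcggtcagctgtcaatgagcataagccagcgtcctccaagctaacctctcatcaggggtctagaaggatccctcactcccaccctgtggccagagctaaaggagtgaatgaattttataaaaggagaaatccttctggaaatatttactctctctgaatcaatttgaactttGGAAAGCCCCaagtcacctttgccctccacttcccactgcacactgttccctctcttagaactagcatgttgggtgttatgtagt
The match in Ccl20 spans bases 80 to 71 before the start and that in Ccl9 bases 35 to 26. Both strands were searched for the 10-letter NF-kB consensus, for TGANTCA (AP-1) and for TATAAA, and matches were allowed to overlap. An NF-kB match was present in 4.51% of the 32851 promoter windows of this length, an AP-1 match in 7.81% and a TATAAA match in 13.6%. Neither Ccl25 window nor the Ccl28 window held an NF-kB match. Ccl9 held 1 AP-1 match and 3 TATAAA matches, 2 of which overlap, Ccl28 held 1 AP-1 match after the start, and 1 of the Ccl25 windows held 1 TATAAA match.

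The 6 untreated libraries held between 7520741 and 24541083 counts and the 6 treated ones between 3822987 and 11567095, so the treated libraries were shallower on the whole. Levels are given as CPM, counts scaled to the TMM-adjusted library total, for the summed counts of both libraries unless single libraries are named. A count of 3, taken as the floor below which a transcript cannot be told from 0, corresponded to between 0.127 and 0.755 CPM in a single library. Floors and intervals cover counting error only, since the reads carry no molecular identifiers. Dkk3 had 0 counts in 11 libraries and 1 count in 1 treated library of DDKC_9750. The libraries of a line and condition differed by less than sampling noise once a shift between lower and higher library numbers was fitted, and nothing in the labels says that they are separate cultures. A line was therefore taken as 1 replicate.

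Ccl2 was strongly higher with rDKK3 in DDKC_9750 and DDKC_9804 and not in DDKC_9790. In DDKC_9750 the untreated libraries held 104 and 142 counts and the treated ones 575 and 814, which is 8.18 CPM without and 135 CPM with rDKK3. In DDKC_9804 it went from 5 and 13 counts to 29 and 46, or from 0.513 to 6.16 CPM. In DDKC_9790 the counts were 12 and 13 untreated and 7 and 7 treated, at 1.07 and 0.757 CPM. Both treated libraries thus lay above both untreated ones in DDKC_9750 and DDKC_9804, and the libraries of the conditions overlapped in DDKC_9790. Such a separation was frequent, since both treated libraries lay above both untreated ones for 32.5% of tested genes in DDKC_9750, 30.4% in DDKC_9790 and 32% in DDKC_9804, and below them for 35.2%, 31.2% and 39.3%. The treated level was 16.5 times the untreated one in DDKC_9750 (95% exact counting interval 14.4 to 19.0), 12 times in DDKC_9804 (7.10 to 21.3) and 0.704 times in DDKC_9790 (0.338 to 1.41). These are bulk samples, so more expressing cells and more RNA per cell cannot be told apart.

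Ccl7, which encodes the other CCR2 ligand and lies next to Ccl2, was seen at far lower levels but in the same lines. DDKC_9750 had 1 and 4 counts untreated and 22 and 29 with rDKK3, that is 0.166 and 4.95 CPM, a ratio of 29.8 (12 to 95.7). DDKC_9804 had 0 counts in both untreated libraries and 2 and 3 counts in the treated ones, for which the exact counting interval of the ratio starts at 2.64 and has no upper bound. DDKC_9790 had 3 and 2 counts untreated and 1 and 1 treated, a ratio of 0.503 whose counting interval ran from 0.0479 to 3.07. Only treated DDKC_9750 cells stood clearly above the floor for Ccl7, and the other 5 samples held 5 counts or fewer.

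Ccl20 was higher with rDKK3 in each of the 3 lines, without overlap between the libraries of the conditions. In DDKC_9750 the counts were 45 and 57 untreated and 165 and 221 treated, from 3.39 to 37.5 CPM. In DDKC_9804 they were 3 and 4 against 15 and 20, from 0.200 to 2.87 CPM, and in DDKC_9790 they were 3 and 2 against 5 and 12, from 0.215 to 0.919 CPM. The ratio was 11.1 (8.87 to 13.9) in DDKC_9750, 14.4 (6.30 to 38.4) in DDKC_9804 and 4.28 (1.51 to 14.8) in DDKC_9790. Every interval lay above 1, but the untreated values of DDKC_9790 and DDKC_9804 rest on 5 and 7 counts. Of all tested genes 14.2% were higher in all 3 lines and 18.1% lower in all 3.

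Ccl5 and Ccl9 had the fewest counts of the 7 members in all and did not pass the filter on low counts. Ccl5 was detected mainly in DDKC_9804, with 12 and 25 counts untreated and 4 and 5 treated, at 1.06 and 0.739 CPM. DDKC_9790 had 1 and 3 counts of Ccl5 untreated and 0 and 4 treated, and DDKC_9750 had 1 and 0 untreated and 0 in both treated libraries, which allows up to 0.755 CPM in the shallower of these. The Ccl5 ratio was 0.700 in DDKC_9804 (0.297 to 1.48), so a change was not detectable at this depth. Ccl9 was spread evenly, at 0.565, 0.473 and 0.428 CPM in untreated DDKC_9750, DDKC_9790 and DDKC_9804 and at 0.388, 0.433 and 0.739 CPM in the treated cells, from 4 to 17 counts a sample. All 3 counting intervals of the Ccl9 ratio held 1, with 0.168 as the lowest bound and 4.21 as the highest. Fitted without a filter on low counts, the log2 fold change was -0.33 (adjusted p = 0.949, edgeR) for Ccl5 and 0.04 (adjusted p = 0.994, edgeR) for Ccl9.

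Ccl25 and Ccl28 were detected in every line, between 0.473 and 3.79 CPM, and neither passed the test of treatment given below. For Ccl25 the counts were 12 and 19 untreated against 1 and 5 treated in DDKC_9750, 13 and 32 against 20 and 33 in DDKC_9790, and 12 and 24 against 8 and 12 in DDKC_9804. Scaled to depth, Ccl25 went from 1.03 to 0.582 CPM, from 1.93 to 2.87 CPM and from 1.03 to 1.64 CPM in that order of lines. The treated libraries thus lay below the untreated ones in DDKC_9750 and above them in the other two. Its ratios were 0.565 (0.193 to 1.38), 1.48 (0.977 to 2.25) and 1.60 (0.877 to 2.84), and each interval held 1. Ccl28 counts were 36 and 42 against 16 and 23 in DDKC_9750, 2 and 9 against 7 and 5 in DDKC_9790, and 12 and 30 against 6 and 11 in DDKC_9804. Ccl28 was slightly higher after treatment in all 3 lines, at 2.59 and 3.79 CPM, 0.473 and 0.649 CPM, and 1.20 and 1.40 CPM. Its ratios of 1.46, 1.37 and 1.17 had intervals that all held 1.

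**Figure D1:**
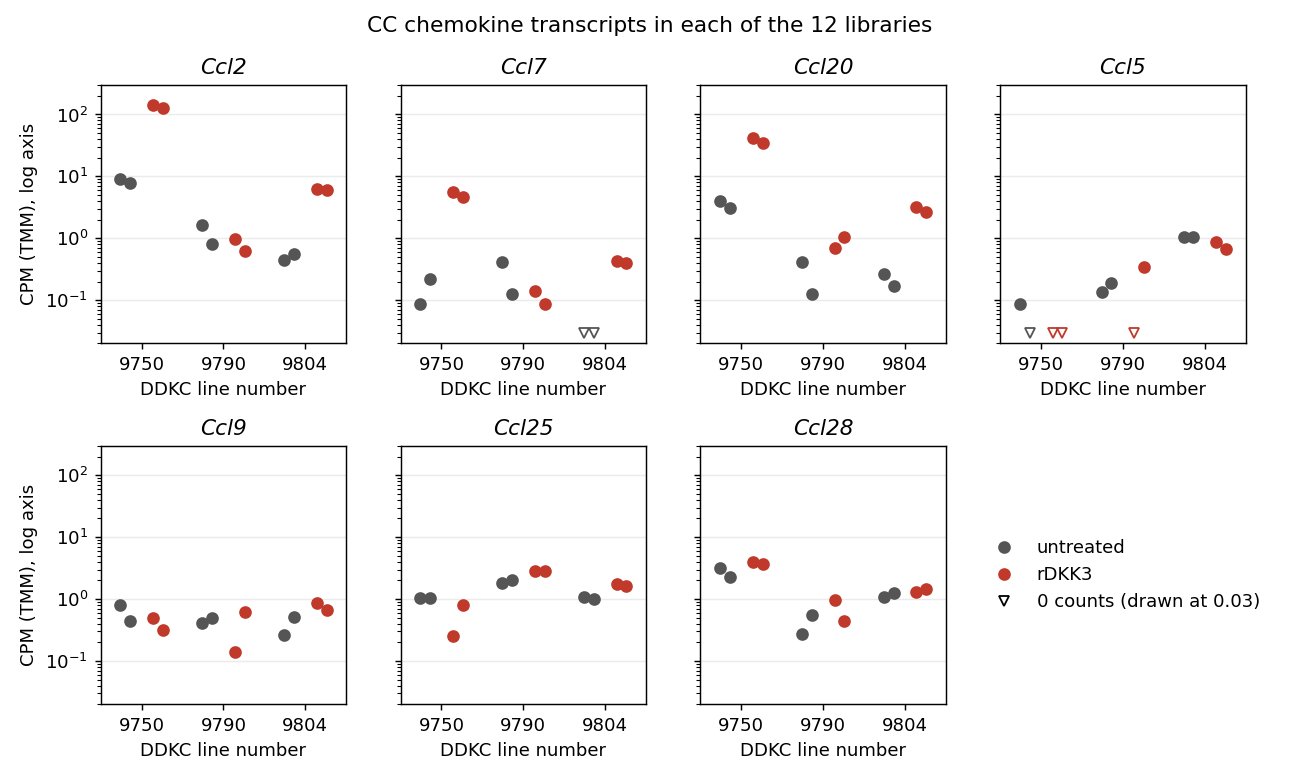
Level of each of the 7 CC chemokine transcripts (CPM after TMM scaling, log axis) in every library, by DDKC line, with untreated libraries in grey and rDKK3-treated ones in red. Open triangles mark 0 counts and are drawn at 0.03. Ccl2 and Ccl20 reach 145 and 41.5 CPM in a treated library of DDKC_9750, and red points lie above grey ones in all 3 lines only for Ccl20.

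**Figure D2:**
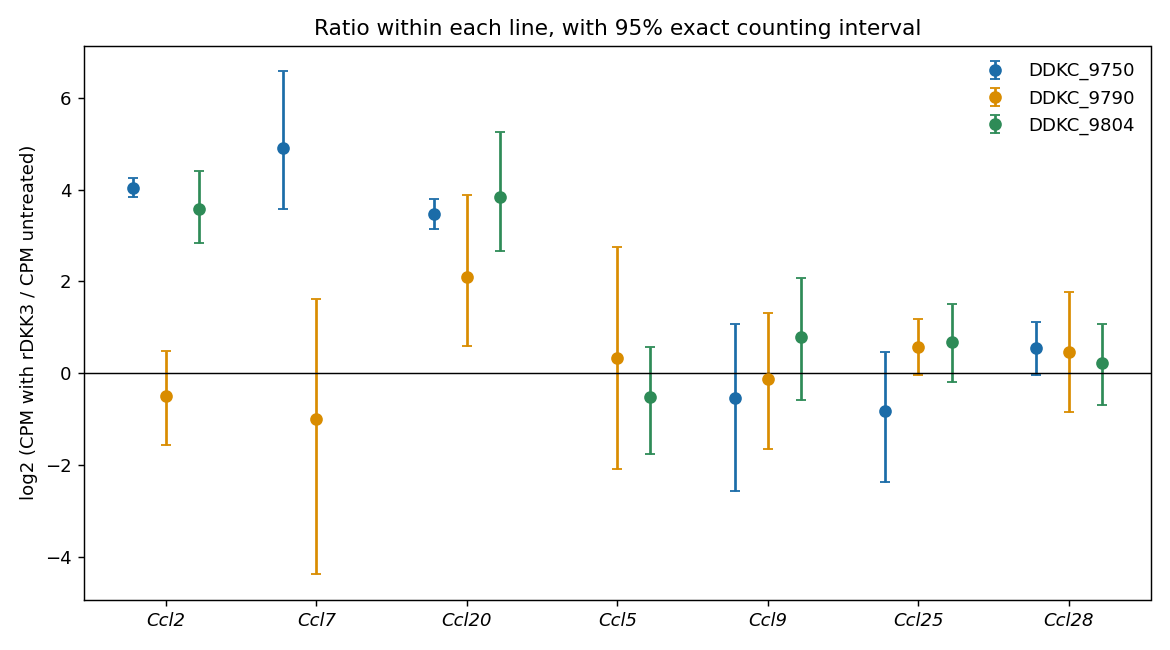
Ratio of treated to untreated CPM within each line on a log2 axis, with 95% exact counting intervals. Ccl7 in DDKC_9804 and Ccl5 in DDKC_9750 are left out because 1 of their samples held 0 counts. The 3 intervals of Ccl20 lie above 0, whereas for Ccl2 and Ccl7 the interval of DDKC_9790 does not meet those of the other lines drawn.

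Averaged over the lines, Ccl2 was at 3.25 ± 4.27 CPM untreated and 47.3 ± 75.9 CPM with rDKK3 (SD, n = 3 lines), so the spread between lines exceeded the mean in both conditions. Ccl20 was at 1.27 ± 1.84 and 13.8 ± 20.6 CPM, and Ccl7 at 0.127 ± 0.113 and 1.82 ± 2.71 CPM. Ccl25 was at 1.33 ± 0.523 and 1.70 ± 1.14 CPM, and Ccl28 at 1.42 ± 1.08 and 1.94 ± 1.64 CPM. With the line as a block, edgeR's quasi-likelihood test on the summed counts gave a log2 fold change of 3.30 for Ccl20 (SE 0.36, adjusted p = 0.578). For Ccl2 it was 2.91 (SE 0.89, adjusted p = 0.578) and for Ccl7 3.25 (SE 1.34, adjusted p = 0.592). Ccl28 gave 0.41 (SE 0.32, adjusted p = 0.726), and Ccl25 gave 0.25 (SE 0.42, adjusted p = 0.876), a value that turned to -0.73 when all libraries were thinned to the depth of the shallowest.

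None of the 5 tested members passed the threshold of 0.05 after adjustment in that fit, in which 1 of 15165 genes (0.00659%) did, namely Lcn2. Before adjustment p was 0.000191 for Ccl20, 0.0204 for Ccl2, 0.0578 for Ccl7, 0.255 for Ccl28 and 0.584 for Ccl25. That places Ccl20 at rank 3 among the 15165 genes by unadjusted p, and it puts 2 of the 5 members under an unadjusted 0.05 in the higher direction, against 3.38% of all tested genes (5.16% were lower at that p, and 8.53% passed it in either direction). Over all genes the median log2 fold change was -0.01. For Ccl20 the call depended on the setting. Its adjusted p was 0.000444 without a filter on low counts and 2.43e-07 with DESeq2 on the same summed counts, and over the 25 alternatives tried it ran from 2.43e-07 to 1, with 4 of them under 0.05 and a log2 fold change from 2.49 to 3.60.

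Taking the 12 libraries as separate observations with the line in the model, 3 of the 5 members were higher with rDKK3, against a background of 7.95% of tested genes higher. They were Ccl20 (log2 fold change 3.36, adjusted p = 3.54e-05, rank 8 of 15165), Ccl2 (3.35, adjusted p = 0.00173) and Ccl7 (3.46, adjusted p = 0.0145). Ccl7 had 51 counts in treated DDKC_9750 and 0 to 5 in the other samples. It thus passed the filter on low counts only through a treated group. No conclusion is therefore drawn from the call of Ccl7 or from its part in that share. Ccl25 (0.28, adjusted p = 0.493) and Ccl28 (0.42, adjusted p = 0.220) did not pass in that fit. These p-values measure the spread between libraries, which may be technical, and not that between lines. Leaving out DDKC_9750 lowered the summed log2 fold change of Ccl2 from 2.91 to 1.74 and that of Ccl7 from 3.25 to 1.35. Leaving out DDKC_9790 raised them to 3.87 and 5.02, whereas Ccl20 stayed between 3.11 and 3.60 whichever line was left out.

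**Figure D3:**
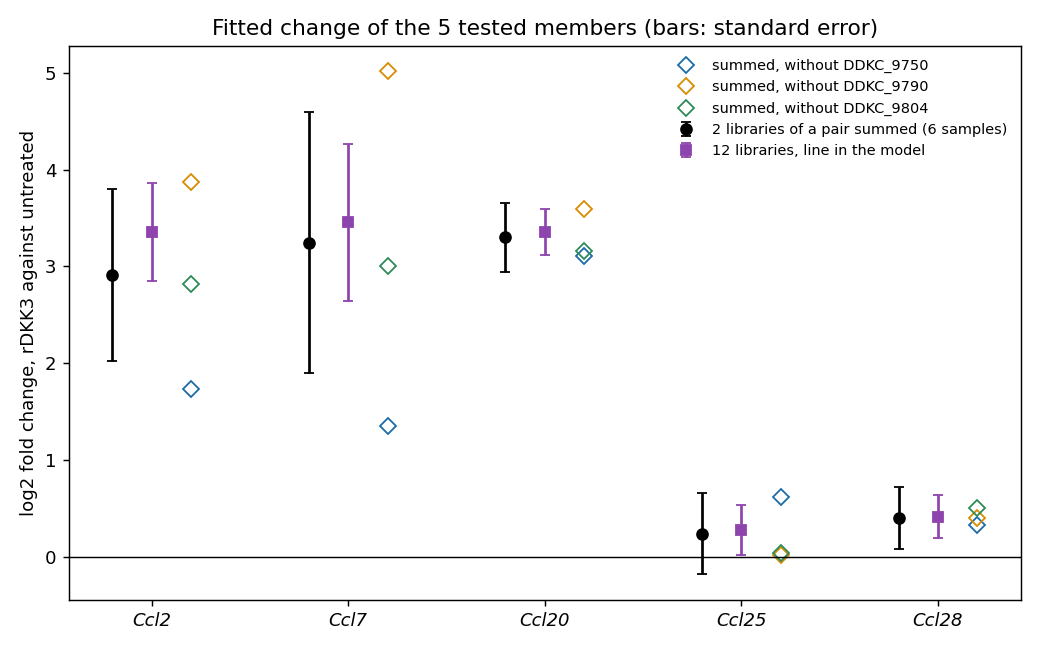
Fitted log2 fold change (rDKK3 against untreated) of the 5 tested members with standard errors, from the summed counts of 6 samples (circles) and from 12 libraries (squares), and without each line in turn (diamonds, no error drawn). The diamonds of Ccl20 lie between 3.11 and 3.60, and those of Ccl7 between 1.35 and 5.02.

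Whether the response differed between the lines was tested by the interaction of line and treatment over the 12 libraries. Ccl2 (adjusted p = 6.84e-05, edgeR) and Ccl7 (adjusted p = 0.00305, edgeR) passed, and Ccl20 (0.272), Ccl25 (0.127) and Ccl28 (0.902) did not. That is 2 of 5 members beside 49.3% of all tested genes, a share near the background. Ccl7 passed the filter on low counts only through treated DDKC_9750, so no conclusion is drawn from its test. The fitted log2 change of Ccl2 was 4.04 in DDKC_9750, 3.56 in DDKC_9804 and -0.52 in DDKC_9790 (adjusted p = 1.06e-08, 6.66e-06 and 0.465 within the lines, edgeR). For Ccl20 it was 3.46 in DDKC_9750, 3.77 in DDKC_9804 and 2.01 in DDKC_9790 (adjusted p = 4.51e-07, 4.40e-05 and 0.0199 within the lines, edgeR). Within DDKC_9750, 17.9% of tested genes were higher by the same test, within DDKC_9804 20.1% and within DDKC_9790 12.3%. The test again sets the lines against the spread between libraries.

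The untreated lines already differed in these transcripts when set against the spread between libraries. That spread may be technical and each line is 1 sample, so the p-values compare these libraries. All 5 tested members passed the test over the 3 untreated lines (largest adjusted p = 0.0179, for Ccl25), as did 80.5% of all tested genes. Ccl2 was highest in DDKC_9750, then DDKC_9790, then DDKC_9804, and each step passed the pairwise test, with a log2 difference of 2.92 for the first (adjusted p = 1.41e-06, edgeR) and 1.06 for the second (adjusted p = 0.0317, edgeR). Ccl20 was highest in DDKC_9750, by 3.92 on the log2 scale over DDKC_9790 (adjusted p = 7.49e-06, edgeR), and its levels in DDKC_9790 and DDKC_9804 could not be told apart (difference 0.11, adjusted p = 0.926, edgeR). Ccl28 was highest in DDKC_9750, then DDKC_9804, then DDKC_9790, with log2 differences of 1.17 (adjusted p = 0.00888, edgeR) between the first pair and -1.33 for DDKC_9790 against DDKC_9804 (adjusted p = 0.0163, edgeR). Ccl25 was instead highest in DDKC_9790, above DDKC_9804 by 0.88 on the log2 scale (adjusted p = 0.0161, edgeR) and above DDKC_9750 by a like amount (adjusted p = 0.0175, edgeR), while DDKC_9750 and DDKC_9804 could not be told apart (adjusted p = 0.987, edgeR). Ccl7 rested on 5, 5 and 0 counts, and its call was lost without 1 untreated library of DDKC_9804 (adjusted p = 0.148, edgeR), as was that of Ccl25 without 1 of DDKC_9790 (adjusted p = 0.224, edgeR).

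To set the genes against each other, CPM was divided by the length of the canonical GENCODE transcript, which is 813 bases for Ccl2, 807 for Ccl7, 802 for Ccl20, 535 for Ccl5, 902 for Ccl25, 3011 for Ccl9 and 3740 for Ccl28. Per kilobase, the 7 transcripts summed to 16.6 in untreated and 221 in treated DDKC_9750, to 4.61 and 6.11 in DDKC_9790, and to 4.45 and 15.5 in DDKC_9804. In DDKC_9750 Ccl2 made up 60.7% of that sum untreated and 75.2% treated, followed by Ccl20 with 25.5% and 21.2%. In DDKC_9790 Ccl25 led in both conditions, with 46.6% and 52.0%, and the share of Ccl2 was 28.7% untreated and 15.2% treated. In DDKC_9804 the leading transcript was Ccl5 without rDKK3 (44.3%, from 37 counts) and Ccl2 with it (48.9%), and Ccl20 was at 5.59% and 23.1%. The treated lines thus differed in which chemokine transcript was most abundant per length, with Ccl2 in DDKC_9750 and DDKC_9804 and the CCR9 ligand Ccl25 in DDKC_9790. These shares are descriptions of single samples and were not tested.

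**Figure D4:**
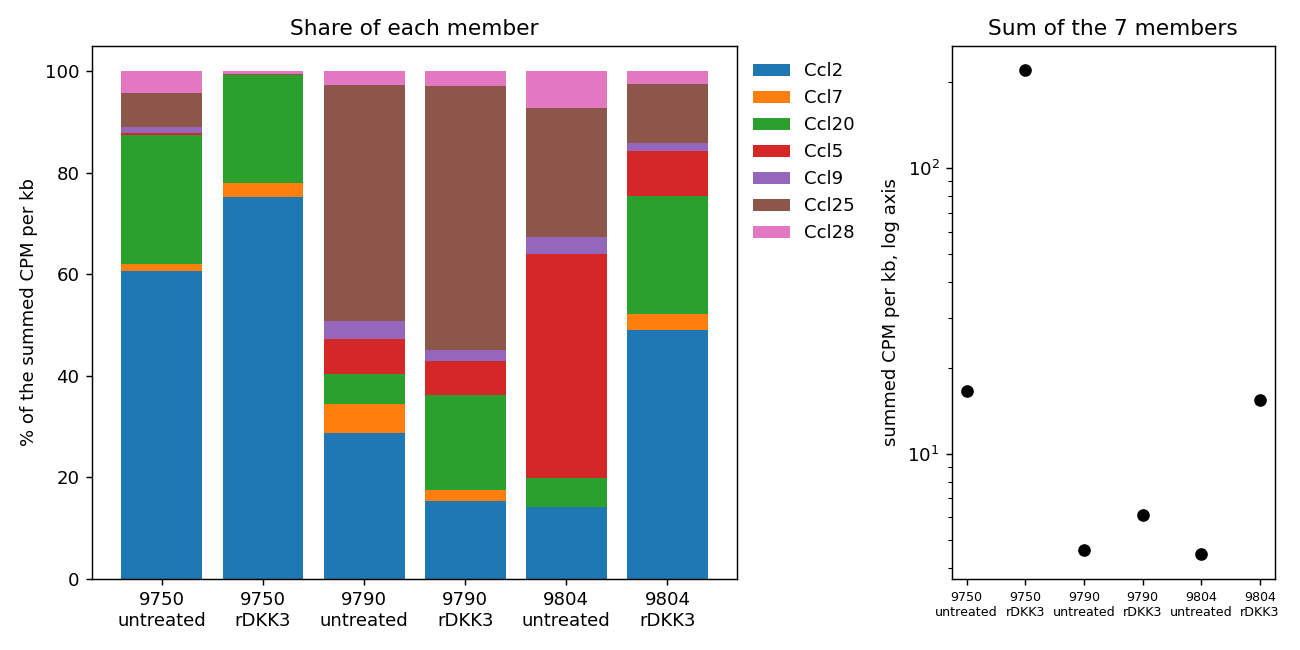
Left, share of each of the 7 transcripts in their summed CPM per kilobase of canonical transcript, for each line and condition. Right, that sum on a log axis. Ccl2 takes 75.2% in treated DDKC_9750, where the sum reaches 221, and Ccl25 takes 52.0% in treated DDKC_9790, where it is 6.11.

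Genes with the most similar pattern were read from the Pearson correlation of log2 CPM over the 6 samples of line and condition, which share their lines and are few. For Ccl2 the nearest protein-coding genes were Srgap2, L3mbtl3 and Notch2, with r from 0.99 to 1.00, and for Ccl20 they were Tent5b, Notch2 and Mars2, all with r between 0.98 and 0.99. Ccl7 was nearest to Selenoi, Stard5 and Ptges2 (r from 0.97 to 0.98). Ccl25 was nearest to Tbc1d12, Ptk2 and Spindoc (r = 0.99 for each) and Ccl28 to Cox16, Tubgcp4 and Nupl2 (r = 1.00 for each to 2 decimals). Ccl7, Ccl20, Ccl25 and Ccl28 lay below the level required of such a gene and could not be named, and Ccl2 correlated with Ccl20 at r = 0.97 and with Ccl7 at r = 0.93 over the same 6 samples. An r above 0.95 was reached by 37 of 10991 genes for Ccl2, 28 of 10992 for Ccl20 and 229 of 10992 for Ccl28.

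Most of the other CC ligand genes had no counts in these cells. Of 17 other CC ligand genes, 12 had 0 counts in all libraries and 1 passed the filter, Ccl27a, which was named after its values were seen, was at 2.54 to 4.42 CPM and had a log2 fold change of 0.12 in the 12-library fit (adjusted p = 0.708). Among 16 CC receptor and decoy receptor genes, the signalling receptor genes Ccr2, Ccr6 and Ccr9 had 2, 2 and 6 counts in all. Ackr4, which encodes a decoy receptor of CCL25 and was named after its values were seen, had 327 counts, at 1.56 to 4.95 CPM, and a log2 fold change of 0.43 in the 12-library fit (adjusted p = 0.160). Ccr10, which encodes a CCL28 receptor, had 74 counts and a log2 fold change of 0.48 (adjusted p = 0.629). Of the 4 receptor genes tested, 2 were higher in the 12-library fit, beside 7.95% of all tested genes, and 0 passed in the summed fit with edgeR or DESeq2 (1 unadjusted with edgeR). They were Ccrl2, whose product binds chemerin (1.39, adjusted p = 0.0411), and Ackr3, which encodes a scavenger of CXCL12 (0.32, adjusted p = 0.00572). Ccrl2 went from 5.02 to 30.3 CPM in DDKC_9750 and from 1.34 to 0.739 CPM in DDKC_9804, so its 3 lines did not share a direction.

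Among 20 genes of NF-kB subunits and regulators, all tested, 11 were higher and 0 lower in the 12-library fit, beside 7.95% and 10.1% of all genes, and 0 passed in the summed fit with edgeR or DESeq2 (4 at an unadjusted p under 0.05 with edgeR), where their median log2 fold change was 0.31. Among the 11 that passed in the 12-library edgeR fit, the 4 with the largest change are named here. They were Nfkbia, the IkB-alpha inhibitor (0.67, adjusted p = 0.0319), and Tnfaip3, the deubiquitinase A20 (0.62, adjusted p = 0.00903). The kinase gene Ikbke (0.48, adjusted p = 0.0373) and Nfkbiz, an atypical nuclear IkB (0.44, adjusted p = 0.000449), followed. Birc3 (0.51) and Traf1 (-0.48) changed by more than Ikbke but did not pass. Nfkbia was at 59.6 and 161 CPM in DDKC_9750, 39.0 and 38.3 CPM in DDKC_9790 and 25.6 and 36.9 CPM in DDKC_9804, untreated and treated. Its interaction of line and treatment had an adjusted p of 1.92e-06 (edgeR).

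Of 20 genes of cytokine inducers and their receptors, 19 were tested, 3 were higher and 1 was lower in the 12-library fit, beside 7.95% and 10.1% of all tested genes, and 0 passed in the summed fit with edgeR or DESeq2 (3 unadjusted with edgeR, median log2 fold change 0.20). Il1a, an alarmin that activates NF-kB, was at 0.299 and 1.17 CPM in DDKC_9750, 0.215 and 0.379 CPM in DDKC_9790 and 0.0856 and 2.55 CPM in DDKC_9804 (log2 fold change 2.58, adjusted p = 0.0107). Tnf was at 1.26 and 12 CPM, 0.774 and 0.919 CPM, and 0.0570 and 0.329 CPM in the same order (2.10, adjusted p = 0.0198). Il1a had 67 counts in all and at most 0.299 CPM in untreated cells. It thus passed the filter on low counts only through treated groups. No conclusion is therefore drawn from the call of Il1a or from its part in the 3 genes higher. Tnfrsf1a, a TNF receptor, was higher (0.27, adjusted p = 0.0429) and Il1r1, the IL1 receptor, was lower (-0.62, adjusted p = 0.00161). Of 13 interferon regulatory factor and STAT genes 0 passed in either edgeR fit or with DESeq2 (0 unadjusted in the summed and 2 in the 12-library fit, where 4992 of the 15165 genes had an unadjusted p under 0.05), and their median in the summed fit was 0.01. Of 7 genes for decay or stability of chemokine mRNA, Zc3h12a, the nuclease Regnase-1, was higher (1.30, adjusted p = 0.00776) and Hnrnpd was lower (-0.18, adjusted p = 0.0282) in the 12-library fit. Their median was -0.02 in the summed fit, in which 0 of the 7 passed with edgeR or DESeq2 (1 unadjusted with edgeR). Zc3h12a was at 19.1 and 101 CPM in DDKC_9750, 8.13 and 13.1 CPM in DDKC_9790 and 12.7 and 18.8 CPM in DDKC_9804, untreated and treated.

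**Figure D5:**
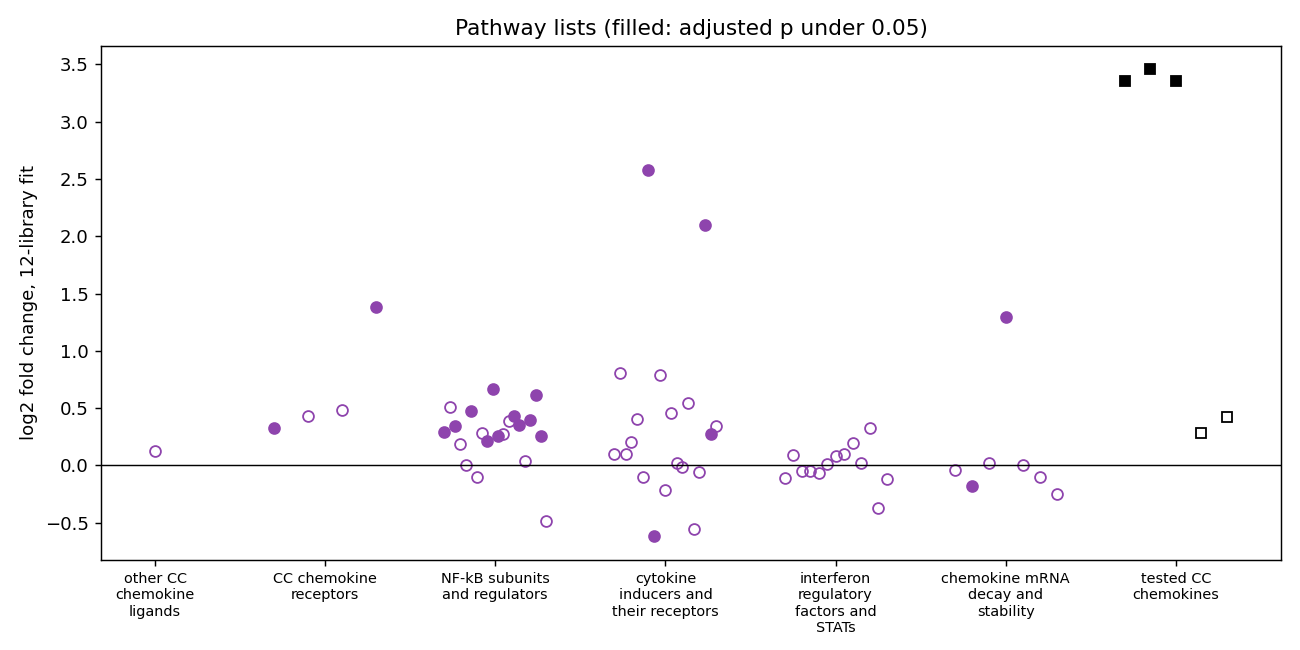
Log2 fold change in the 12-library fit of each tested gene of 6 lists (circles) and of the 5 tested CC chemokines (squares), filled where the adjusted p was under 0.05. Ccl2, Ccl7 and Ccl20 lie at 3.35 to 3.46, above every circle. The highest circles are Il1a at 2.58 and Tnf at 2.10. Ccl7 and Il1a passed the filter on low counts only through treated groups, so no conclusion is drawn from their place or fill.

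Because white blood cells make several of these chemokines, markers of other cell types were read in the same libraries. The epithelial keratin genes Krt8, Krt18 and Krt19 were at 784 to 3568 CPM in every sample, and all 3 were lower in the 12-library fit (-0.45, -0.36 and -0.55, adjusted p = 0.0131, 0.0235 and 0.00011), while Sox9 was higher (0.33, adjusted p = 0.00268), beside 10.1% of all tested genes lower and 7.95% higher. Cdh1, the gene of E-cadherin, was at 310 to 1048 CPM and did not pass (0.16, adjusted p = 0.198). In the summed fit 0 of the marker genes of any cell type passed with edgeR (5 unadjusted) and 1 epithelial marker was lower with DESeq2, and the edgeR adjusted p was 0.578 for Krt8, Krt19 and Sox9 and 0.617 for Krt18. Epcam reached 2.04 CPM at most. Of 9 leukocyte markers 3 had 0 counts, namely Adgre1, Lyz2 and Cd3e, and Ptprc, the gene of CD45, had 6 counts over the 12 libraries. The summed level of the leukocyte markers was 9.64 to 29.2 CPM untreated and 10.6 to 46.1 CPM treated, made up almost wholly of Cd68 and Csf1r. Cd68, a lysosomal gene that is not restricted to leukocytes, was higher with rDKK3 in the 12-library fit (0.87, adjusted p = 0.00142) and did not pass in the summed fit (adjusted p = 0.578). It was at 2.03 and 3.01 CPM in DDKC_9750, 23.2 and 38.1 CPM in DDKC_9790 and 2.65 and 6.73 CPM in DDKC_9804, untreated and treated. Fibroblast markers summed to 7.27 to 13.3 CPM untreated and 5.75 to 12.3 CPM treated. Most of these counts came from Col1a1 (637 in all), Pdgfra (402) and Pdgfrb (160), which did not pass in either edgeR fit. Dcn had 2 counts in all and Lum 1. Pdgfrb was at 4.34 CPM in untreated and 0.493 CPM in treated DDKC_9804. Pdpn was higher in the 12-library fit (3.81, adjusted p = 0.00155) and did not pass in the summed fit (adjusted p = 0.578). It was at 4.27 CPM in treated DDKC_9750 and 0 to 0.266 CPM elsewhere. Pdpn thus passed the filter on low counts only through that treated group, and no conclusion is drawn from its call. The acinar markers Cpa1, Pnlip and Ptf1a were at 0, with the acinar sum at 0.656 to 11.8 CPM untreated and 0.575 to 11 CPM treated, mostly Cela1. The endothelial sum was 1.40 to 15.3 CPM untreated and 0.971 to 17.4 CPM treated, nearly all Kdr. The part of Cd68, Pdpn or the keratin genes in the chemokine values was not tested.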

How the data were processed

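RNA of the 12 libraries was sequenced as read pairs from a directional kit. The authors aligned the reads to GRCm39 with STAR 2.7.9a, counted them by strand on GENCODE genes with GenomicAlignments, and deposited raw counts per gene without normalization. No row lacked a gene name, and no column of values was left without a library. Tests used edgeR 4.0.16 and, as an alternative, DESeq2 1.42.0 in R 4.3.3. Counts of the 2 libraries of a line and condition were summed, scaled by TMM and fitted with line as a block (quasi-likelihood test, Benjamini-Hochberg over 15165 genes, threshold 0.05, two-sided). Genes were kept by filterByExpr (minimum count 10, minimum total 15). Interaction and untreated-line tests used 12 libraries.

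Pairing comes from the line named in the labels, and deviations of treated and untreated libraries of a line correlated at 0.822, 0.874 and 0.805. Over 12979 genes the deviance per degree of freedom between the libraries of a pair was 6.44, and 0.780 with a shift by library number. On simulated counts the summed fit recovered 77 of 100 genes changed 4-fold and 21 of 100 changed 2-fold, with 13 false calls among 15165 genes. In the data the same fit called 1 gene, and not Ccl20 at a log2 fold change of 3.30. The simulated rates are therefore not taken as those of the data.

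All members are named whatever their values. From each list at most 4 genes passing either fit are named, by largest change in the 12-library fit, and 3 most similar genes per tested member, with a mean log2 CPM of at least 1. Log2 CPM used a prior count of 2. The members and the 6 pathway and 5 marker lists were chosen with earlier results of these data known. Alternatives were other fits, scalings, filters, depths and left-out lines or libraries. Figures were drawn with matplotlib. A further allele of the lines and a receptor gene are not reported here.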

Additional observations from a re-analysis of the deposited data

Results flagged for a closer look

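The response of Ccl2 to rDKK3 differed between the lines by the interaction of line and treatment (edgeR, adjusted p = 6.84e-05), with fitted log2 changes of 4.04 in DDKC_9750, 3.56 in DDKC_9804 and -0.52 in DDKC_9790. For Ccl7 the same test gave an adjusted p of 0.00305 (edgeR), with 4.83 in DDKC_9750 and -0.97 in DDKC_9790, from 68 counts over all libraries. No fitted value is printed for DDKC_9804, whose untreated libraries held 0 counts of Ccl7. The exact counting interval of its ratio starts at 2.64. Ccl7 passed the filter on low counts only through treated DDKC_9750, the group that makes this difference, so no conclusion is drawn from its test. Both tests set the lines against the spread between libraries of the same line and condition, which may be technical, and 49.3% of all tested genes passed the same test. The adjusted p ran from 1.15e-17 to 0.000468 for Ccl2 and from 4.95e-05 to 0.0236 for Ccl7 over the 16 alternatives tried for each.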

How the results depend on the processing

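The count of genes that changed with rDKK3 depended on the fit, whereas the direction of Ccl2, Ccl7, Ccl20 and Ccl28 was upward in every alternative that gave a value. Against 1 gene in the summed fit with the line as a replicate block (1294 at an unadjusted p under 0.05), 2744 passed over 12 libraries with the block and 3124 with the library number series added. Without the replicate block 0 passed on summed counts (94 unadjusted) and 0 over 12 libraries (1151 unadjusted), 6 passed with the lower library number of each pair only, 103 with DESeq2, 90 without a filter on low counts, 0 with at least 10 counts in every sample (1191 unadjusted) and 5 with thinned libraries. Leaving out 1 line gave 0 to 2 genes and leaving out 1 library 0 to 1. The cause was not tested. Ccl25 turned from 0.25 to -0.73 with thinned libraries. The line-dependent response was called for 7474 genes with edgeR, for 3678 with DESeq2 and for 6378 to 7112 without 1 library, and the calls of all 5 tested members stayed on their side of the threshold. For untreated lines, Ccl25 lost its call without a filter (adjusted p = 0.0624, edgeR). Depth limits Ccl5, Ccl7 and Ccl9 most, with 55, 68 and 64 counts in all.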
